A study of Mus musculus with 4 samples.

Results

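PDGFRα+ and CD137+ adipose progenitors were compared in a pair of libraries labelled dexamethasone (DEX) that both held few adipocyte transcripts. One is the PDGFRα+ DEX column of the deposited table that sets it against PDGFRα+ PBS, and the other is the CD137+ DEX column of the table that sets the cell types against each other. The 2 columns were selected on their measured adipocyte transcripts, such as Adipoq and Plin1, which were low in both, so that cell type could be looked at in a similar state. The tables share 14208 gene identifiers, and the genes described are the 12648 of these with at least 1 FPKM in the higher of the 2 columns, out of 15906 listed in any of the 3 tables. FPKM is a fragment count divided by transcript length and by the total mapped, so that levels can be set side by side between genes.

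All cells were adipose progenitors of C57BL/6 mice, sorted with magnetic beads (MACS) from the depots named SAT or VAT, and which cell type came from which depot is not stated in the labels. Every group was grown in culture, given an adipogenic cocktail and then treated. The 4 groups, with 1 sample each, were CD137+ cells with PBS, CD137+ cells with 1 µM dexamethasone, PDGFRα+ cells with PBS and PDGFRα+ cells with 1 µM dexamethasone. The age of the mice and any pooling are not stated in the labels. The 3 tables hold 6 columns, 3 per cell type, and columns of 1 label differ between tables. There is 1 library on each side, so no value has a replicate error, no test was made, and each difference is the size of a difference between libraries.

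PDGFRα, a receptor tyrosine kinase for platelet-derived growth factors, marks fibroblast-like cells of adipose tissue from which adipocytes form. CD137, a receptor of the tumour necrosis factor receptor family encoded by Tnfrsf9, is known in mice as a surface marker of cells that give rise to beige adipocytes, which burn fuel for heat. Progenitors of different depots keep separate sets of developmental transcription factors in culture, with Tbx15, En1 and posterior Hox genes known from subcutaneous fat and Wt1 and Tcf21 from visceral fat. Dexamethasone is a synthetic glucocorticoid.

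Gene levels were compared as the difference of log2(FPKM + 1), PDGFRα+ minus CD137+, after the median log2 ratio of the 11644 genes at 1 FPKM or more in both columns (-0.02) was set to 0. A positive log2 difference thus means a higher level in the PDGFRα+ column. At 2-fold or more on this scale, 679 of 12648 genes (5.37%) were higher in the PDGFRα+ column and 185 (1.46%) in the CD137+ column. At 4-fold the counts were 157 and 25, and at 8-fold 41 and 10. The shares of 5.37% and 1.46% are those to set beside each list count between these columns. Between the PBS columns the shares over all genes were 8.01% and 5.31%. Another 10579 genes (83.6%) lay within 1.5-fold of each other and 4350 (34.4%) within 1.1-fold. Just outside the size rule, 261 genes lay between 1.8-fold and 2-fold, and just inside it 183 lay between 2-fold and 2.2-fold. The minimum of 1 FPKM kept 143 genes between 1 and 1.1 FPKM and left out 184 between 0.9 and 1 FPKM. In 5 of the genes higher in the PDGFRα+ column the CD137+ column is listed at 0, and in none was it the other way round.

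**Figure D1:**
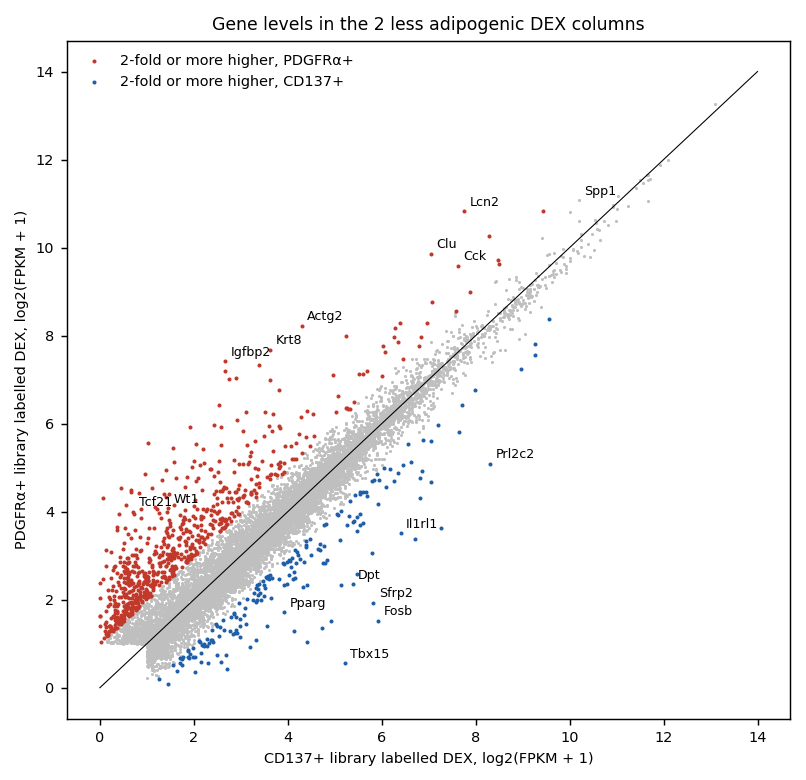
Levels of 12648 genes in the CD137+ (x axis) and PDGFRα+ (y axis) columns labelled DEX, each as log2(FPKM + 1), with the line of equal levels. The 679 genes 2-fold or more higher in the PDGFRα+ column (red) outnumber the 185 higher in the CD137+ column (blue), and 10579 genes lie within 1.5-fold.

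Most of the transcriptome was thus close between cell types in these libraries. Levels across genes, which are no replicates of each other, had a Pearson r of 0.961 on the log2 scale. That of the PBS columns was 0.916 and that of the remaining DEX columns 0.92. Between cell types, 864 genes (6.83%) stood 2-fold apart here, against 1663 of 12481 (13.3%) with PBS and 1640 of 12531 (13.1%) between the other DEX columns. The pair described here was chosen for few adipocyte transcripts in both columns. Its higher r and smaller share are therefore partly set by that choice and are given as a description. The 2 PDGFRα+ DEX columns, which carry the same label, stood 2-fold apart in 2685 of 13019 genes (20.6%), more than the cell types did in any of these pairs. The 2 CD137+ DEX columns stood 2-fold apart in 1167 of 12362 (9.44%), which is more than the 6.83% between the columns described here and less than the shares of the other pairs. The other DEX columns lay close to PBS of their own cell type, at 22 genes (0.177%) for PDGFRα+ and 129 (1.05%) for CD137+. In the sheet titles the PDGFRα+ DEX column described here carries the library number 1 and the CD137+ DEX column the number 2. The library, the table and the cell type therefore cannot be told apart from these labels alone. The depot of each cell type is not stated, so depot and cell type cannot be told apart either. Over all 6 columns, summed FPKM ranged from 430997 to 449283, genes at 1 FPKM or more from 11971 to 12465, and the share of the 10 highest genes from 8.94% to 14.1%, and sequencing depth is unknown.

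The adipocyte transcripts that chose these columns are given as a description. Adipoq, the adiponectin gene, stood at 1.44 FPKM in the PDGFRα+ and 0.149 FPKM in the CD137+ column, against 14.7 to 145 FPKM in the other 4 columns. Plin1, which coats lipid droplets, stood at 1.06 and 0.925 FPKM, against 6.11 to 104 FPKM in the other columns. Fabp4, a fatty acid carrier, remained at 66.5 and 126 FPKM, and stood at 738 to 1814 FPKM elsewhere.

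The labels of cell type and treatment were less clear in the sorting and glucocorticoid genes. Tnfrsf9, the gene of CD137, stood at 1.62 FPKM in the PDGFRα+ and 0.161 FPKM in the CD137+ column, the opposite of the labels. It stood at 4.81 and 4.14 FPKM in the other PDGFRα+ columns and was not listed in the table holding the other CD137+ columns. Pdgfra itself was nearly level, at 57.9 FPKM in the PDGFRα+ and 67.7 FPKM in the CD137+ column (log2 difference -0.20). Tsc22d3, a direct glucocorticoid target, stood at 30.2 and 28.7 FPKM, against 113 and 76.1 FPKM in the PDGFRα+ and CD137+ libraries labelled PBS. Fkbp5, a co-chaperone of the receptor that glucocorticoids induce, stood at 35.8 and 47.7 FPKM, against 64.7 and 68.1 FPKM with PBS. Both cell types and treatments are therefore named as labelled. Nr3c1, the glucocorticoid receptor, was near level at 17.6 and 15.1 FPKM in the PDGFRα+ and CD137+ columns.

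Several transcription factors known from fat depots differed between the columns. For these and for the Hox genes below, depot of origin and cell type cannot be told apart. Tbx15, a T-box factor of subcutaneous and other superficial mesenchyme, had the largest difference in favour of the CD137+ column among genes at 5 FPKM or more (log2 difference -4.64). Its level was 0.474, 0.630 and 0.946 FPKM in the 3 PDGFRα+ columns and 36.2, 70.3 and 55.5 FPKM in the 3 CD137+ columns, each time in the order of the DEX column described here, the other DEX column and PBS. The columns of the cell types did not overlap. Tbx15 lies on GRCm38 (ENSMUSG00000027868, chromosome 3, 99240381 to 99354259). En1, a homeobox patterning factor, stood at 0.904 FPKM in the PDGFRα+ and 8.18 FPKM in the CD137+ column, and between 9.10 and 9.94 FPKM in the other CD137+ columns against 1.51 and 2.16 FPKM in the other PDGFRα+ columns.

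Most visceral factors were higher in the PDGFRα+ column. Wt1, a zinc finger factor of the mesothelium and of visceral adipose progenitors (ENSMUSG00000016458, chromosome 2, 105126529 to 105173616), stood at 15.9 FPKM in the PDGFRα+ and 1.73 FPKM in the CD137+ column and at 39 and 44.2 FPKM in the other PDGFRα+ columns. Tcf21, a basic helix-loop-helix factor of visceral mesenchyme, stood at 15 and 0.640 FPKM, and at 81.1 and 57.6 FPKM in the other PDGFRα+ columns. Neither gene was listed in the table with the other CD137+ columns, which gives no value for them. Of 14 subcutaneous identity genes 8 were measured, meaning at 1 FPKM or more in the higher column: 4 were 2-fold higher in the CD137+ column, 0 in the PDGFRα+ column, and the median log2 difference was -1.35. Of 16 visceral identity genes 12 were measured, 5 higher in the PDGFRα+ and 2 in the CD137+ column, with a median of 0.94, while the median over all 12648 genes was 0.01. Of the subcutaneous list, Hoxc8 and Hoxd8 were higher in the PDGFRα+ column in every pair, below 2-fold here (log2 differences 0.59 and 0.38) and past it for both between the other DEX columns (1.06 and 1.11). The visceral genes higher in the CD137+ column were Osr1, a zinc finger factor of embryonic mesoderm, at 4.77 and 11 FPKM and Tbx18, a T-box factor of mesothelium and mural cells, at 4.01 and 9.20 FPKM in the PDGFRα+ and CD137+ columns. Counts and medians over measured members carry a bias, because a gene that reaches 1 FPKM in 1 column alone has to differ. The list medians were -1.58 and 0.86 between the PBS columns and -1.43 and 0.74 between the other DEX columns.

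**Figure D2:**
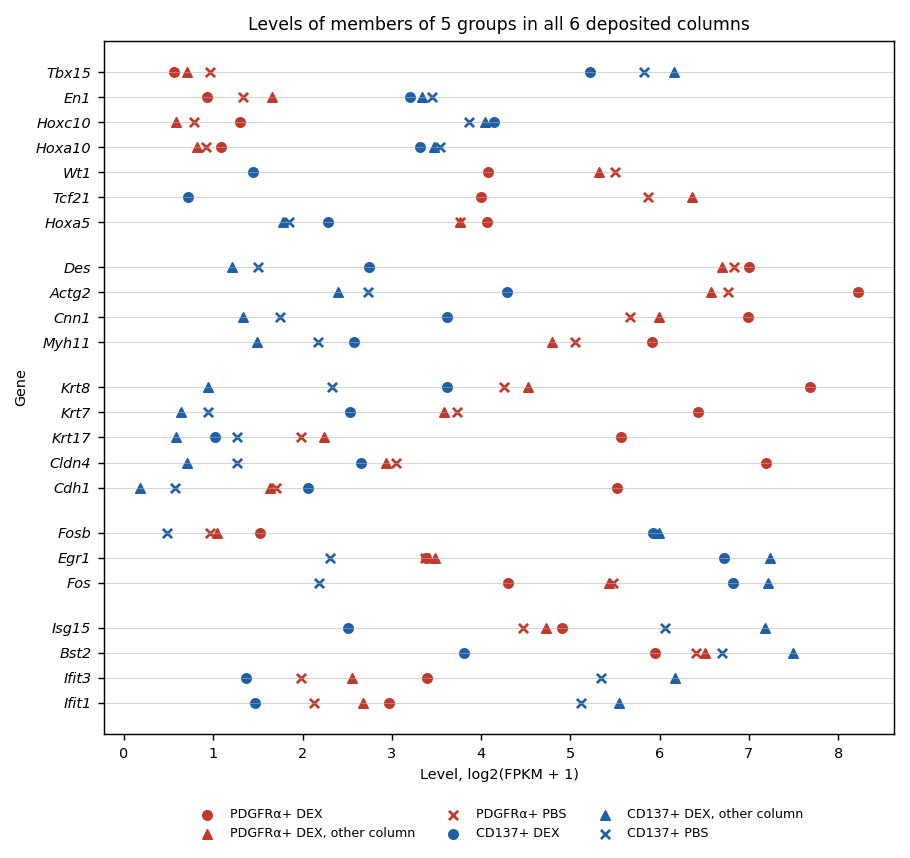
Levels of 23 genes in all 6 deposited columns as log2(FPKM + 1), 1 symbol per library, for depot-linked factors, smooth muscle genes, keratins and junction genes, immediate early genes and interferon response genes from top to bottom. Circles are the columns described here: the 3 red PDGFRα+ and 3 blue CD137+ symbols stay apart for Tbx15 and Des, while for Isg15 the blue circle lies below and the other blue symbols above all red ones.

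Hox genes, which record position along the body axis in numbered paralogues, differed in direction along their clusters. Of 39 Hox genes 27 were measured, 20 with a positive and 7 with a negative log2 difference. The anterior and middle paralogues were mostly higher in the PDGFRα+ column. Hoxa5, known from visceral fat, stood at 15.7 FPKM in the PDGFRα+ and 3.88 FPKM in the CD137+ column. Hoxa3 stood at 5.53 and 1.99 FPKM and Hoxb8 at 12.4 and 4.99 FPKM in the PDGFRα+ and CD137+ columns. Hoxa10 and Hoxc10, the measured genes of paralogue 10, were the 2 Hox genes that were 2-fold higher in the CD137+ column. Hoxc13, the only measured gene beyond them, did not reach 2-fold in that direction. Hoxc10, a known mark of gluteal and inguinal subcutaneous fat, stood at 1.45 FPKM in the PDGFRα+ and 16.6 FPKM in the CD137+ column (log2 difference -2.83), and at 15.5 and 13.6 FPKM in the other CD137+ columns against 0.493 and 0.717 FPKM in the other PDGFRα+ columns. Hoxa10, its counterpart in cluster A, stood at 1.12 and 8.99 FPKM (log2 difference -2.22). Paralogue 9 was split: Hoxa9 had a log2 difference of -0.94 and Hoxc9 of -0.49, while Hoxd9 had one of 1.00.

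**Figure D3:**
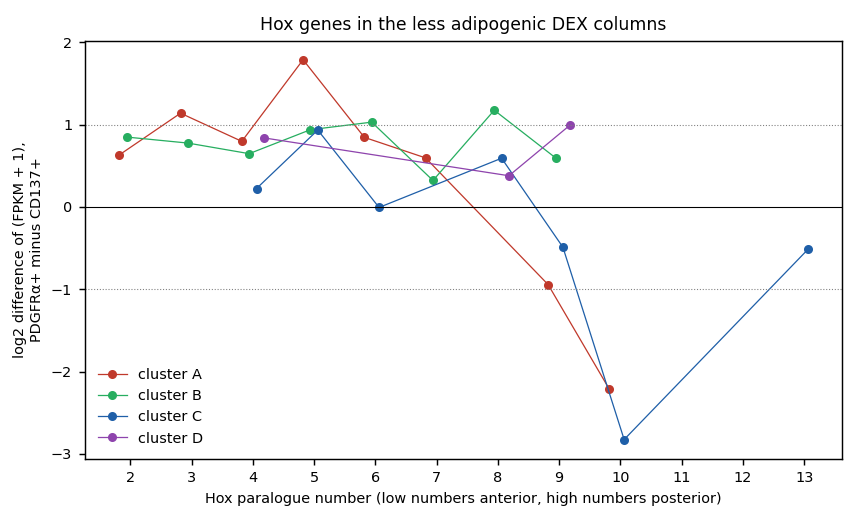
Log2 difference of (FPKM + 1), PDGFRα+ minus CD137+ column, for the measured Hox genes of paralogues 2 to 13 against paralogue number, with 1 line per cluster and dotted lines at 2-fold. Paralogues 2 to 8 lie above 0 except Hoxc6, which lies just under it, and Hoxa10 and Hoxc10 lie below the lower dotted line at -2.22 and -2.83.

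Smooth muscle genes were higher in the PDGFRα+ column, and their summed level kept that order in all 3 pairs of columns. Of 22 mural and smooth muscle genes 21 were measured, with a median log2 difference of 1.27. At 2-fold 13 were higher in the PDGFRα+ and none in the CD137+ column (all genes 5.37% and 1.46%). Des, the intermediate filament desmin of muscle cells, stood at 128 FPKM in the PDGFRα+ and 5.68 FPKM in the CD137+ column (log2 difference 4.28; ENSMUSG00000026208, chromosome 1, 75360329 to 75368579). Its level was 103 and 113 FPKM in the other PDGFRα+ columns and 1.31 and 1.83 FPKM in the other CD137+ columns. Actg2, the gamma actin of visceral smooth muscle, stood at 299 and 18.6 FPKM in the PDGFRα+ and CD137+ columns. The smooth muscle myosin Myh11 stood at 59.2 and 4.97 FPKM, the actin-binding calponin Cnn1 at 126 and 11.3 FPKM and the myosin kinase Mylk at 24.9 and 3.10 FPKM. Acta2, the alpha actin that activated fibroblasts share with smooth muscle, was high in both, at 1808 and 692 FPKM. The members at the level end were Notch3, a receptor of mural cells, with a log2 difference of 0.07, and Acta1, the skeletal actin, with -0.07. The pericyte gene Rgs5 was under 1 FPKM in both columns. The 21 genes of the list with a value in all 6 columns summed to 5859.9 and 2177 FPKM in these columns, 2233 and 639 FPKM with PBS, and 2182 and 645 FPKM in the other DEX columns. In bulk RNA a smaller number of cells of a type and less RNA per cell cannot be told apart.

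Of the 12 genes with the largest differences in favour of the PDGFRα+ column at 5 FPKM or more, 7 were keratins or other epithelial genes. Keratins are the intermediate filaments of epithelia, and claudins seal the tight junctions between epithelial cells. Krt8 stood at 205 FPKM in the PDGFRα+ and 11.3 FPKM in the CD137+ column and its filament partner Krt18 at 159.6 and 9.48 FPKM. The PBS and other DEX columns of PDGFRα+ cells held 18.2 and 22 FPKM of Krt8, so the level was highest in the PDGFRα+ column described here. Krt17, a keratin of basal and activated epithelium, stood at 46.4 and 1.02 FPKM, Krt14 at 28.1 and 0.939 FPKM and Krt7 at 85.2 and 4.78 FPKM. Cldn4 stood at 145 FPKM in the PDGFRα+ and 5.32 FPKM in the CD137+ column (log2 difference 4.55), Cldn3 at 34.2 and 2.0 FPKM and Cldn7 at 34.8 and 3.02 FPKM. The adhesion molecule genes Cdh1 (E-cadherin) and Epcam stood at 45.1 and 3.16 FPKM and at 45 and 5.0 FPKM, again PDGFRα+ first.

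Of 13 keratins 10 were measured and 9 were 2-fold higher in the PDGFRα+ column, Krt10 being the exception with a log2 difference of -0.31. Of 13 claudins 8 were measured and 5 were higher. Of 36 epithelial junction and regulator genes 29 were measured and 28 were higher, with Pkp2, a desmosome plaque gene, below 2-fold at 0.52. These 3 lists were written after the leading genes had been seen, so their counts describe and support nothing. The 30 of the 36 genes listed in both tables summed to 469 FPKM in the PDGFRα+ and 57.8 FPKM in the CD137+ column. The 13 listed in all 6 columns summed to 324 and 43.4 FPKM here, 43.2 and 15.5 FPKM with PBS, and 44.4 and 12.5 FPKM in the other DEX columns. The list holds transcription factors of epithelia: Grhl2 had a log2 difference of 1.59, Elf3 of 2.68 and Ehf of 1.97, and the epithelial splicing factors Esrp1 and Esrp2 of 2.30 and 1.40.

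Mesothelial genes, which share keratins with other epithelia, were measured at 17 of 19 members, and 14 were 2-fold higher in the PDGFRα+ column. Outside the keratins and Cdh1, the mesothelial surface gene Msln stood at 5.30 and 1.21 FPKM and the uroplakins Upk1b and Upk3b at 7.11 and 1.44 FPKM and 2.77 and 0.529 FPKM, PDGFRα+ first. The levels of Msln and Upk3b were not the highest of the PDGFRα+ columns, since Msln stood at 15.2 and 12 FPKM and Upk3b at 6.15 and 3.97 FPKM in the other 2. Against PBS, the mesothelial list was split in the PDGFRα+ DEX column, with 6 of 18 genes 2-fold higher and 7 lower (all genes 10.3% and 11.5%). The keratin Krt8 and the surface genes Msln and Upk3b therefore ranked the PDGFRα+ columns differently. Removing the keratins, claudins, and the epithelial, mesothelial and mural genes left 616 genes higher in the PDGFRα+ and 185 in the CD137+ column. Their part in the other differences below was not tested.

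Secreted proteins of epithelial and acute inflammatory surfaces stood beside them. Lcn2, the iron-binding lipocalin, stood at 1814 FPKM in the PDGFRα+ and 214 FPKM in the CD137+ column, and at 381 to 2155 FPKM in the other columns. Clu, the extracellular chaperone clusterin, stood at 929 and 131 FPKM, Ltf, the iron-binding lactoferrin, at 59.4 and 2.77 FPKM, and the calcium-binding S100a8 at 22.3 and 0.362 FPKM. S100a8 was at most 1.83 FPKM in the other 4 columns. Of 32 acute phase and complement genes 26 were measured, with a median log2 difference of 0.79. At 2-fold 13 were higher in the PDGFRα+ and none in the CD137+ column (all genes 5.37% and 1.46%). Orm1, an acute phase glycoprotein of plasma, stood at 4.58 and 0.0519 FPKM, and Cd59a, an inhibitor of the complement attack complex, at 14.1 and 4.12 FPKM. Saa3, the serum amyloid made by fat cells, went the other way below 2-fold, at 282 and 434 FPKM, far under the 10892 to 22241 FPKM of the other columns.

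Interferon response genes were higher in the PDGFRα+ column, whereas with PBS and in the other DEX columns they were higher in CD137+ cells. Interferons induce these genes through transcription factors that bind a DNA element built on repeats of GAAA. Isg15, a ubiquitin-like modifier, stood at 29 FPKM in the PDGFRα+ and 4.69 FPKM in the CD137+ column (log2 difference 2.41), but at 21.2 and 65.9 FPKM with PBS and 25.6 and 144 FPKM in the other DEX columns. Bst2, which tethers budding virus particles, stood at 60.7 and 13 FPKM, against 83.8 and 103 FPKM with PBS. Ifit3 and Ifit1, which bind viral RNA or its sensors, stood at 9.55 and 1.59 FPKM and at 6.80 and 1.75 FPKM, against 2.94 and 39.6 FPKM and 3.38 and 33.6 FPKM with PBS. Ifit3 has a near-identical copy, Ifit3b, so its level is uncertain. For each of these 4 genes the CD137+ DEX column described here held the lowest level of the 6 columns, and the other CD137+ columns held the highest levels.

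Of 38 interferon response genes 34 were measured here: 13 were 2-fold higher in the PDGFRα+ column, none in the CD137+ column, and the median log2 difference was 0.81. With PBS 1 of 37 was higher in PDGFRα+ (all genes 8.01%) and 25 in CD137+ (all genes 5.31%), with a median of -1.32. Between the other DEX columns the median was -1.66, with 1 and 27 of 37 (all genes 7.68% and 5.41%). Set against PBS of their own cell type, 35 of 37 were 2-fold lower in the CD137+ DEX column (all genes 7.21%), and 3 of 36 were lower and 3 higher in the PDGFRα+ DEX column (11.5% and 10.3%). Of 21 antigen presentation genes 16 were measured and none stood 2-fold apart between the columns (all genes 6.83%, list median 0.17). Against PBS, however, 17 of 19 were 2-fold lower in the CD137+ DEX column (median -1.55) and 11 of 18 in the PDGFRα+ DEX column (median -1.16).

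The promoters of the 4 interferon genes named above are shown because each holds the GAAA repeat. They are not the 4 with the largest differences. Ifi44, at a log2 difference of 1.98 against 1.51 for Ifit1, is not among the genes with a match. The search used GAAA, NN and GAAA in a row, where N is any base, on both strands in the 250 bases before each gene start, in RefSeq promoters of build GRCm38.p6. Of the 34 measured genes 27 had a promoter entry and 12 of these (44.4%) held it, against 3.46% of 27025 genes in the table. Each stretch below reads 5′ to 3′ along the gene, and capitals mark every match, so overlapping matches run together and TTTC repeats are matches on the other strand. The capital that opens the Ifit3 stretch is the end of a match further upstream. A match is a run of letters and not a measured binding site.
Isg15, chr4:156200850-156200909, minus strand: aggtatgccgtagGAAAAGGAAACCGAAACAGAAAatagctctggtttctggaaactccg
Bst2, chr8:71537562-71537621, minus strand: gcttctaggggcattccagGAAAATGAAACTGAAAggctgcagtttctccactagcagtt
Ifit3, chr19:34583382-34583441, plus strand: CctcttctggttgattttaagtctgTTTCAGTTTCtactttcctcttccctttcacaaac
Ifit1, chr19:34640779-34640838, plus strand: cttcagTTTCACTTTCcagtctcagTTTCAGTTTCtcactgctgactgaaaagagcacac

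Immediate early genes were higher in the CD137+ column. They encode factors that growth signals and stress induce without new protein synthesis. Fosb, an AP-1 subunit, stood at 1.88 FPKM in the PDGFRα+ and 59.7 FPKM in the CD137+ column (log2 difference -4.38), the zinc finger factor Egr1 at 9.45 and 104 FPKM and Fos at 18.8 and 112 FPKM. Ier2, a nuclear response gene, stood at 12.4 and 47.6 FPKM and Klf2, a Krüppel-like factor, at 3.90 and 19.1 FPKM. Of 25 members 23 were measured, with a median of -0.73. At 2-fold 9 were higher in the CD137+ and none in the PDGFRα+ column (all genes 1.46% and 5.37%). With PBS the order was reversed, at 43.7 FPKM of Fos in PDGFRα+ and 3.54 FPKM in CD137+ cells, and a list median of 0.86. There 6 of 20 were higher in PDGFRα+ and 0 in CD137+ cells (all genes 8.01% and 5.31%). Between the other DEX columns the median was -1.05, and Fosb stood at 1.06 and 62.8 FPKM. The CD137+ libraries labelled DEX were thus both high and the CD137+ PBS library low for Fosb, Egr1 and Fos.

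Secreted growth factors and cytokines divided the cell types in both directions. Igfbp2, a binding protein that holds insulin-like growth factors, had the largest positive log2 difference of the genes named, 4.77, at 170.1 FPKM in the PDGFRα+ and 5.33 FPKM in the CD137+ column (ENSMUSG00000039323, chromosome 1, 72824503 to 72852474). Its level was 225 and 200.4 FPKM in the other PDGFRα+ columns and 1.91 and 2.39 FPKM in the other CD137+ columns, with no overlap. Igf1, the growth factor itself, stood at 9.61 and 2.17 FPKM, and the imprinted Igf2 at 16.7 and 2.0 FPKM, although 62.8% of the exon bases of Igf2 overlap another annotated gene. H19, the imprinted RNA beside Igf2, stood at 13.9 and 38.5 FPKM, the other way round. Igfbp5 stood at 5.80 and 1.65 FPKM, while with PBS it was lower in PDGFRα+ cells (0.767 and 3.43 FPKM). Of 20 genes of the axis, all measured, 5 were higher in the PDGFRα+ and 2 in the CD137+ column.

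Il1rl1, the receptor of interleukin-33, stood at 10.4 FPKM in the PDGFRα+ and 83.5 FPKM in the CD137+ column, and between 0.241 and 0.265 FPKM in the other PDGFRα+ columns against 9.37 and 14.8 FPKM in the other CD137+ columns. The proliferin genes Prl2c2 and Prl2c3 stood at 33 and 315 FPKM and 11.4 and 153 FPKM, but they are near-identical copies and their levels are uncertain. Ccl11 and Ccl8, chemokines for eosinophils and monocytes, stood at 1.66 and 10.7 FPKM and 4.04 and 20.2 FPKM, PDGFRα+ first. The neutrophil chemokines Cxcl1 and Cxcl5 stood at 24.6 and 132 FPKM and at 54.9 and 199 FPKM in the same order. Ccl11, Ccl8 and Cxcl5 were higher in CD137+ cells in each pair, while with PBS Cxcl1 went the other way (32.7 and 23.8 FPKM). Of 33 cytokine and chemokine genes 26 were measured, 8 higher in the CD137+ and 5 in the PDGFRα+ column (median -0.48). Cck, which encodes the peptide hormone cholecystokinin, was among the highest genes in the PDGFRα+ column, at 768 FPKM against 195 FPKM in the CD137+ column. The other pairs did not keep this order. Cck stood at 2.30 and 15.9 FPKM in the other DEX columns and at 4.21 and 5.15 FPKM with PBS, PDGFRα+ first. Spp1, the matricellular osteopontin, was high in both, at 2151 and 1171 FPKM, against 129 to 195 FPKM elsewhere. Cck and Spp1 were thus higher in both of these libraries than in the other 4.

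Wnt and BMP pathway genes lay in both directions. Sfrp2, a secreted Wnt modulator, stood at 2.81 FPKM in the PDGFRα+ and 55.7 FPKM in the CD137+ column (log2 difference -3.88), and at 279 and 278 FPKM in the other CD137+ against 12.7 and 13.3 FPKM in the other PDGFRα+ columns. Axin2, a feedback target that Wnt signalling induces, stood at 7.37 and 1.29 FPKM and was higher in PDGFRα+ cells with PBS too (4.33 and 0.968 FPKM). The antagonist Frzb stood at 6.52 and 1.09 FPKM, and the ligands Wnt4 and Wnt16 at 3.18 and 0.373 FPKM and 0.274 and 3.05 FPKM. Of 32 Wnt genes 22 were measured, 5 higher in the PDGFRα+ and 2 in the CD137+ column (all genes 5.37% and 1.46%). Among BMP and TGF-beta ligands, Gdf6 stood at 14.8 and 1.40 FPKM and Tgfb3 at 53.6 and 18 FPKM, while Gdf10 stood at 6.46 and 27.3 FPKM. Of 35 genes of that list 29 were measured, with 4 higher in the PDGFRα+ and 3 in the CD137+ column (all genes 5.37% and 1.46%).

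The matrix differed in kind more than in amount. Collagen genes had a median log2 difference of -0.02 over 26 measured out of 36. At 2-fold 6 were higher in the PDGFRα+ and 4 in the CD137+ column (all genes 5.37% and 1.46%). Col6a3, a chain of the microfibrillar collagen VI abundant in fat, stood at 33.8 and 97.2 FPKM. The basement membrane chains Col4a3 and Col4a4 stood at 3.98 and 0.218 FPKM and 3.22 and 0.224 FPKM, and the fibril-associated Col14a1 at 4.07 and 0.527 FPKM. Sparcl1 and Mfap4, matricellular and microfibril proteins, stood at 61.9 FPKM in the PDGFRα+ and 4.41 FPKM in the CD137+ column and at 75.6 and 7.58 FPKM, and were higher in PDGFRα+ cells in the other pairs too (log2 differences 2.81 and 4.46 with PBS). Dpt, a fibroblast matrix protein, stood at 4.11 and 40.7 FPKM, and the thrombospondin Thbs2 at 189 and 610.1 FPKM, the other way round.

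Laminins and integrins, which tie cells to basement membrane, were 2-fold higher in the PDGFRα+ column in 13 of 29 measured genes, out of 32, and in none in the CD137+ column. Among them were chains of the laminin that anchors epithelia, with Lama3 at 8.79 and 0.432 FPKM and Lamb3 at 10.2 and 0.515 FPKM. Itga3, an integrin that binds this laminin, stood at 33.4 and 3.67 FPKM and Itgb6, an epithelial integrin chain, at 3.70 and 0.199 FPKM. The chains of interstitial and vascular laminins did not follow, with log2 differences of -0.69 for Lama4, -0.34 for Lamb1 and -0.62 for Lamc1. Of the proteases, the gelatinase Mmp9 stood at 11.3 and 1.71 FPKM and the urokinase Plau at 56.4 and 11.7 FPKM. Both were below 2-fold between the PBS columns, at log2 differences of 0.35 and 0.42. Adam33 stood at 1.71 and 7.59 FPKM, higher in the CD137+ column. Of 39 proteases and inhibitors 36 were measured, 9 higher in the PDGFRα+ and 2 in the CD137+ column (all genes 5.37% and 1.46%).

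**Figure D4:**
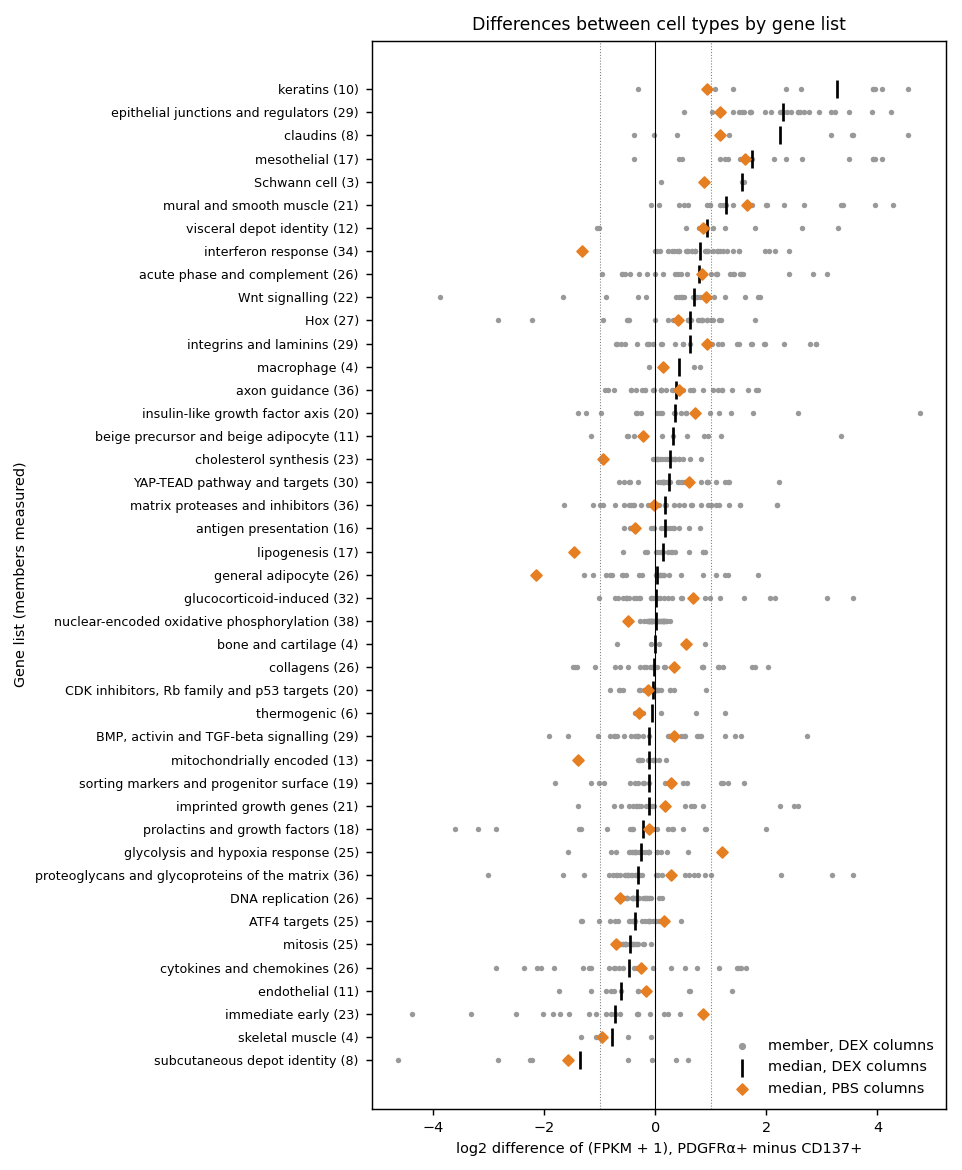
Log2 differences of (FPKM + 1), PDGFRα+ minus CD137+, for each measured member (grey) of 43 gene lists between the DEX columns, with the list's median (black bar) and its median between the PBS columns (orange diamond). Interferon response (0.81 and -1.32) and immediate early genes (-0.73 and 0.86) have medians on opposite sides of 0.

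Surface genes of progenitors were mixed. Vcam1, an adhesion molecule that binds leukocytes, stood at 12.1 FPKM in the PDGFRα+ and 45.3 FPKM in the CD137+ column, and was higher in CD137+ cells in the other pairs too (log2 differences -1.23 and -1.12). Nt5e, the ectonucleotidase CD73, stood at 9.20 and 3.15 FPKM, and Cd24a, a marker of early adipocyte progenitors, at 198 and 66.1 FPKM. Of 22 such genes 19 were measured, 4 higher in the PDGFRα+ and 3 in the CD137+ column. Of 15 beige precursor and adipocyte genes 11 were measured, with a median of 0.31. At 2-fold 2 were higher in the PDGFRα+ and 1 in the CD137+ column (all genes 5.37% and 1.46%). The member 2-fold higher in the CD137+ column was Ebf2, a factor that selects brown and beige progenitors in mice, at 2.23 and 6.27 FPKM. Those 2-fold higher in the PDGFRα+ column were Myh11 and Tnfrsf9, given above, and the median was -0.22 between the PBS columns. Ucp1, the uncoupling protein of heat production, was not listed. Of 24 thermogenic genes 10 were listed in both tables and 6 were measured, of which 1, the creatine synthesis enzyme Gatm (3.0 and 0.685 FPKM), was 2-fold apart.

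Adipocyte genes were low in both columns but not in proportion. Pparg, the master regulator of adipocyte differentiation, stood at 2.29 FPKM in the PDGFRα+ and 14.2 FPKM in the CD137+ column (log2 difference -2.19), and was higher in CD137+ cells with PBS as well (7.68 and 46.6 FPKM). Cebpa, its partner factor, stood at 7.66 and 14.4 FPKM and the lipase Lpl at 121 and 183 FPKM. By contrast Adipoq, the lipid droplet gene Cidec (1.62 and 0.0967 FPKM), the insulin-regulated glucose carrier Slc2a4 (2.03 and 0.225 FPKM) and the glycerol phosphate enzyme Gpd1 (4.47 and 0.524 FPKM) were 2-fold higher in the PDGFRα+ column, all at few FPKM. With PBS these 4 genes were higher in CD137+ cells, with log2 differences from -3.82 for Gpd1 to -1.96 for Cidec. Of 30 general adipocyte genes 26 were measured, 4 higher in the PDGFRα+ and 3 in the CD137+ column (all genes 5.37% and 1.46%). The median was 0.03, against -2.14 between the PBS columns, where 21 of 28 were higher in CD137+ cells (all genes 5.31%). Since adipocyte mRNA chose the columns, these counts support nothing. Lipogenesis and cholesterol synthesis genes had medians of 0.14 and 0.26 with none of 17 and 23 measured 2-fold apart, while with PBS the medians were -1.46 and -0.94.

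Genes of cell division leaned to the CD137+ column, none of them by 2-fold. All 25 mitosis genes had a negative log2 difference, from -0.65 to -0.08, and none reached 2-fold (median -0.46). Mki67, the proliferation marker Ki-67, stood at 12.5 and 20.3 FPKM and the topoisomerase Top2a at 34.9 and 53.3 FPKM. Of 26 DNA replication genes 24 were lower in the PDGFRα+ column, again with none at 2-fold (median -0.32). Both libraries stood well above PBS in these genes: against PBS of the same cell type 23 of 25 mitosis genes were 2-fold higher in PDGFRα+ and 20 of 25 in CD137+ cells (all genes 10.3% and 4.93%). In the same promoter windows TTTGAA, the core of a cell cycle element, was found in 8 of 21 mitosis genes with an entry (38.1%), against 18.3% of all genes. Of 20 cycle inhibitors, Rb family members and p53 targets, 10 had a positive and 10 a negative difference and none reached 2-fold (all genes 6.83%). Between the other DEX columns 2 were 2-fold higher in PDGFRα+ and 3 in CD137+ cells (all genes 7.68% and 5.41%).

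Tead1, the Hippo pathway factor named in the title of the series, stood at 61.1 FPKM in the PDGFRα+ and 42.6 FPKM in the CD137+ column (log2 difference 0.53; ENSMUSG00000055320, chromosome 7, 112679318 to 112906807). It was higher in PDGFRα+ cells in each pair of columns, at 40.9 and 23.6 FPKM in the other DEX columns and 45.3 and 28.3 FPKM with PBS, below 2-fold each time. TEAD factors recruit the coactivators YAP and TAZ to the DNA element GGAATG. Ankrd1, a target gene encoding a nuclear and sarcomeric repeat protein, stood at 51.6 and 10.3 FPKM, and the kinase gene Nuak2 at 23.7 and 8.96 FPKM. Of 32 pathway and target genes 30 were measured, with a median of 0.24. At 2-fold 5 were higher in the PDGFRα+ and none in the CD137+ column (all genes 5.37% and 1.46%). The search for GGAATG, on both strands of the same 250 bases, found it in 13 of 23 members with a promoter entry (56.5%), against 14.4% of all genes. The Ankrd1 promoter, shown as that of the list's leading gene, holds it at more than 1 place, and the stretch with the match nearest to the gene start has it in capitals.
Ankrd1, chr19:36119933-36119992, minus strand: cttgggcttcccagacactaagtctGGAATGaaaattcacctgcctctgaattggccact

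Glucocorticoid-induced genes had a median log2 difference of 0.01 over 32 measured of 35, with 6 higher in the PDGFRα+ and 1 in the CD137+ column. The members apart were led by Sparcl1 and Lcn2, given above, and by Crispld2, a secreted protein, at 58.5 and 13.3 FPKM. Hsd11b1, which regenerates active glucocorticoid, stood at 22 and 6.66 FPKM. Against PBS of their own type, 23 of 32 were 2-fold lower in the PDGFRα+ library labelled DEX (all genes 11.5%). In the CD137+ one 12 of 31 were lower (all genes 7.21%), the opposite of the direction in the labels. Both columns were chosen for few adipocyte transcripts, and Klf15, Cebpd and Lpin1 are in the adipocyte list too. Tsc22d3, Fkbp5 and Hsd11b1 are not in it. How far these counts follow from that choice was not tested, and nothing about the labels is concluded from them. Targets of ATF4, the factor of the amino acid and stress response, were slightly higher in the CD137+ column, with Trib3 at 6.11 and 17.2 FPKM, the cystine carrier Slc7a11 at 4.56 and 13.1 FPKM and Chac1 at 2.80 and 6.78 FPKM, and 3 of 25 at 2-fold. Among glycolysis and hypoxia genes Adm, the vasodilator peptide adrenomedullin, stood at 13.8 and 43.5 FPKM and was the 1 of 25 at 2-fold.

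Energy genes had medians near 0. None of 38 nuclear-encoded respiratory subunits and none of 13 mitochondrially encoded genes were 2-fold apart (all genes 6.83%), with medians of 0.01 and -0.11. mt-Co2, a subunit of cytochrome oxidase, stood at 3731 and 3863 FPKM, and mt-Atp6, of the ATP synthase, at 2602 and 2712 FPKM. Between the PBS columns the mitochondrially encoded median was -1.39 with 11 of 13 2-fold higher in CD137+ cells (all genes 5.31%). The mitochondrial share of summed FPKM was 7.8% in the PDGFRα+ and 8.02% in the CD137+ column.

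Few markers of blood cells had a value in both columns. None of 12 lymphocyte markers was listed in both tables, and 4 of 16 macrophage markers were measured, led by Cd14 at 23.8 and 13.4 FPKM. Of 14 endothelial markers 11 were measured, and the 13 listed in both tables summed to 43.1 FPKM in the PDGFRα+ and 46.2 FPKM in the CD137+ column. Of the 11 measured, 8 were lower and 3 higher in the PDGFRα+ column, with a median log2 difference of -0.63. At 2-fold 2 were higher in the CD137+ and 1 in the PDGFRα+ column (all genes 1.46% and 5.37%). Pecam1, the endothelial adhesion molecule, was lower in the PDGFRα+ column, at 0.672 and 4.61 FPKM. The 1 member 2-fold higher there was the receptor Kdr, at 10.1 and 3.26 FPKM. Of 14 skeletal muscle markers 5 were listed in both tables, summing to 11.2 and 17.2 FPKM, of which Acta1 held 8.48 and 9.07 FPKM. The Schwann cell gene Mbp, a myelin protein, stood at 4.71 and 0.951 FPKM.

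Genes apart in the same direction in all 3 pairs of columns were then counted, a comparison in which no column is used more than once. Of 11828 genes measured in every pair, 437 (3.69%) were 2-fold higher in PDGFRα+ cells here, 870 (7.36%) in the other DEX columns and 915 (7.74%) with PBS, and 213 (1.8%) in all 3. These 213 make 48.7% of the first set, 24.5% of the second and 23.3% of the third. In CD137+ cells 175 (1.48%), 604 (5.11%) and 611 (5.17%) genes were higher, and 63 (0.533%) in all 3, or 36% of the first, 10.4% of the second and 10.3% of the third. The other DEX and PBS columns lie close together, so they count as little more than 1 comparison. Opposite directions here and with PBS were found in 34 genes higher in PDGFRα+ cells here and 11 higher in CD137+ cells here. Among the 213 were Igfbp2, Des, Actg2, Cnn1, Myh11, Mfap4 and Krt7, the adhesion molecule Cadm4 (20.3 and 1.58 FPKM here), the ion pump regulator Fxyd6 (31.3 and 2.88 FPKM) and the muscle adhesion protein Pgm5 (20.1 and 1.77 FPKM). Pgm5 was nearly constant within each cell type, at 20.1, 20.2 and 19.5 FPKM in PDGFRα+ and 1.77, 1.71 and 1.65 FPKM in CD137+ columns. Among the 63 were Tbx15, Hoxc10, Sfrp2 and Il1rl1, the lubricating proteoglycan Prg4 (4.01 and 34.2 FPKM), the secreted Lrrc17 (1.06 and 20.4 FPKM) and the matrix gene Sned1 (7.37 and 54.8 FPKM). Nrn1, which encodes the neurite growth protein neuritin, was another, at 1.55 and 25.7 FPKM, but its exons overlap those of another gene, as do parts of Sfrp2 and Sned1.

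**Figure D5:**
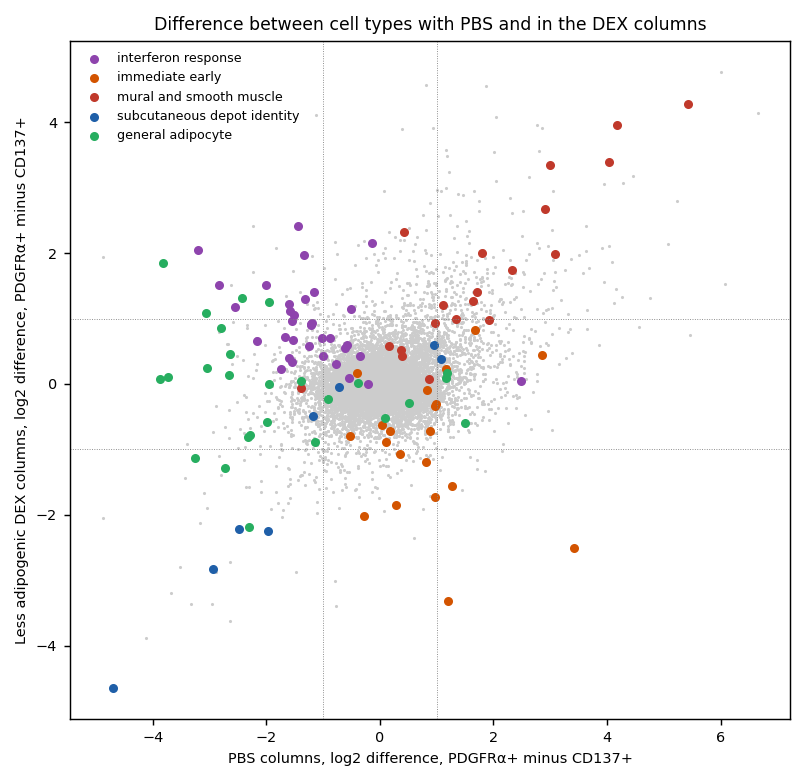
Log2 difference between cell types, PDGFRα+ minus CD137+, between the PBS columns (x axis) and between the DEX columns described here (y axis) for 11828 genes, with members of 5 lists in colour and dotted lines at 2-fold. Smooth muscle genes lie at the upper right and Tbx15 at the lower left (-4.70 and -4.64), while most interferon genes lie at the upper left.

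Crabp1 and Wisp2 were also among the genes named for a large difference in favour of the CD137+ column. Crabp1, a retinoic acid binding protein, stood at 1.86 FPKM in the PDGFRα+ and 29.3 FPKM in the CD137+ column, against 0.134 to 2.10 FPKM in the other 4 columns. Wisp2, a secreted CCN family protein of fibroblasts, stood at 5.02 and 43.6 FPKM, and was 2-fold higher in CD137+ cells in the other pairs too (log2 differences -1.82 and -1.47).

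Some genes have a value in only 1 of the joined tables and no difference could be formed. The PDGFRα+ table alone listed 801, of which 146 reached 1 FPKM, and the table of both cell types alone listed 471, of which 43 did. The highest on the first side were the actin crosslinker Flna at 418 FPKM and the spectrin Sptan1 at 88 FPKM. On the second side stood the spectrin Sptbn1 at 106 FPKM, Mdfic at 40.6 FPKM and Luzp1 at 26.7 FPKM. Sptbn1 was listed at 189 FPKM in the other PDGFRα+ DEX column, so absence from a table is no measure of a low level. Shox2, a homeobox factor of the subcutaneous list picked out after its values were seen, had 13.6 FPKM in the CD137+ column and no value in the PDGFRα+ table, and stood at 0.138 and 12.7 FPKM in the other DEX columns.

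Each DEX column was finally set against PBS of the same cell type, over 12092 genes measured in both. In PDGFRα+ cells 1075 (8.89%) were 2-fold higher and 1305 (10.8%) lower than with PBS, and in CD137+ cells 607 (5.02%) and 837 (6.92%). The shared genes were 355 higher (2.94%) and 437 lower (3.61%) in both, with 32 in opposite directions. The 355 make 33% of the PDGFRα+ and 58.5% of the CD137+ set, and the 437 make 33.5% and 52.2%. The 2 comparisons share no column, but both DEX columns were chosen for few adipocyte transcripts, so the overlap is partly set by that choice. Of 28 general adipocyte genes, 19 were 2-fold lower than with PBS in PDGFRα+ and 25 in CD137+ cells (all genes 11.5% and 7.21%). The shared counts are therefore given as a description. Collagens were mostly on the lower side of PBS in PDGFRα+ cells, with 16 of 27 lower and 0 higher, and in CD137+ cells 8 of 23 were lower and 3 higher. Cholesterol synthesis genes had medians of opposite sign, 0.81 with 10 of 23 higher in PDGFRα+ and -0.56 with 3 of 23 lower in CD137+ cells.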

How the data were processed

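Per the labels' protocols, Trizol was used to extract RNA and the TruSeq RNA kit of Illumina to prepare libraries. The submitters' processing notes name Cufflinks, Cuffdiff and the mouse build mm10, without versions. Aligner and annotation: not given in the sources used here. Per the file headers, 3 tables of FPKM were deposited with 2 columns each, and 0 columns were left unmapped. The authors' ratios and p-values were not used. The lowest values listed for the higher column were 0.386 FPKM (PDGFRα+ table) and 0.401 FPKM (table of both cell types), so genes lower in both columns are missing. A gene listed at 0 may be a failed estimate. Depth is unknown, and no counting interval is given.

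Columns were joined on the gene identifier. Differences of log2(FPKM + 1) were taken after setting to 0 the median log2 ratio of genes with at least 1 FPKM in both columns, which understates those of low genes. The tables were made separately, so levels set across them are approximate. The other medians set to 0 were -0.17 for the other DEX columns, -0.16 for PBS, and 0.28 and 0.15 for DEX against PBS in PDGFRα+ and CD137+ cells. A gene was counted apart at 2-fold with at least 1 FPKM in the higher column. With 1 library a side no test was made.

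The genes and lists were chosen with earlier results of these data known. Named were 12 genes fixed by name, the 12 highest and 12 lowest differences at 5 FPKM or more without predicted genes, and the 10 per direction with the largest smallest difference over all 3 pairs. To these came up to 5 members per list described, the 6 highest per side listed in 1 table only, and the 6 highest of those within 1.1-fold. Other list members named for their role were chosen after their values were seen, as were the keratin, claudin and epithelial lists.

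Identifiers were looked up in GENCODE M21 (GRCm38), which held 99.8% of 15906. Strand is not stated for the counting, and 18 of 229 named genes share over 10% of exon bases with another gene, so their levels are uncertain. These include Igf2, Timp3, Nrn1, Sfrp2, Sned1, Spp1, Gpd1, Icam1, Tgm2, Tapbp and Bnip3. Some genes are not reported here. Promoters are RefSeq windows of GRCm38.p6. Alternatives covered the pseudocount, the minimum, the threshold, the scaling and genes listed in 1 table only. The scripts were tested on simulated data. Python 3.11.15, numpy 2.4.6, pandas 2.3.3 and matplotlib 3.10.9 were used.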

Additional observations from a re-analysis of the deposited data

Results flagged for a closer look

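Results are given here where the columns described and the PBS columns put the cell types on opposite sides. Each side holds 1 library per cell type, so the difference between the 2 comparisons was not tested, and values are log2 differences, PDGFRα+ minus CD137+, first between the DEX columns and then with PBS. The median of the interferon response list was 0.81 and -1.32, and that of the immediate early list -0.73 and 0.86. Of the interferon genes, Isg15 stood at 2.41 and -1.44, Ifit3 at 2.04 and -3.21, Ifi44 at 1.98 and -1.33, and Ifit1 at 1.51 and -2.83. Of the early factors, Egr1 stood at -3.31 and 1.19 and Fos at -2.50 and 3.42.

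Adipocyte and metabolic genes were found on opposite sides as well: Adipoq at 1.09 and -3.06, Cidec at 1.26 and -1.96, Slc2a4 at 1.31 and -2.44, and Gpd1 at 1.85 and -3.82. In each of them the CD137+ column held under 1 FPKM here. The ATF4 targets Trib3 and Chac1 stood at -1.33 and 1.84, and at -1.02 and 2.15. Secreted genes were S100a8 at 4.10 and -1.12, Orm1 at 2.41 and -2.24, and Igfbp5 at 1.37 and -1.20.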

How the results depend on the processing

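Counts depended on the settings. In the order of genes higher in PDGFRα+, higher in CD137+, higher in PDGFRα+ in all 3 pairs and higher in CD137+ in all 3 pairs, the values were 679, 185, 213 and 63. A pseudocount of 5 FPKM gave 251, 72, 75 and 30, a minimum of 10 FPKM 274, 111, 92 and 38, a 1.5-fold threshold 1414, 655, 523 and 209, and a 4-fold threshold 157, 25, 33 and 14. A pseudocount of 0.1 FPKM gave 1015, 339, 340 and 107. The fewer genes tested account for the lower counts at 10 FPKM, and the fold rule itself for those at 1.5-fold and 4-fold. By the formula, a larger pseudocount shrinks each difference, most for low genes, and a smaller one enlarges it. No minimum, no rescaling, an equal upper quartile, equal summed FPKM and missing genes taken as 0 kept all 4 counts within 1.5 times. Leaving out the keratin, claudin, epithelial, mesothelial and mural genes, chosen after seeing the data, did so too.

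No named gene at 2-fold or more and no list median over 0.5 in size turned its direction under these settings. Of 1669 values of 217 named genes, 1616 kept their side of 2-fold, 47 fell below it (pseudocount 5) and 6 rose above it (pseudocount 0.1). Of 338 list medians 42 moved, in 18 of 43 lists. The general adipocyte median went from 0.03 to -0.29 at a minimum of 10 FPKM. No paired analysis was possible because each group has 1 sample, and for the same reason no replicate could be left out. With depth unknown, small differences at low FPKM cannot be told from counting noise.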
